A study of Mus musculus with 108 samples.

Results

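Cortex (CX) and hippocampus (HIP) of wild-type (WT) mice were compared at postnatal day 7 (P7). The members are the 6 libraries labelled WT cortex at P7 and the 6 labelled WT hippocampus at P7, 12 of the 108 libraries of the series. They were chosen by their labels and paired by the animal named there, and each of the 6 mice gave 1 library of each region. The mice carried no Cul3 mutation and their strain is labelled C56Bl/6N, which the study's text writes C57BL/6N. They were the controls of a study of Cul3+/- mice, which carry a germline frameshift insertion in 1 copy of Cul3, the scaffold of a ubiquitin ligase. Each library held total RNA of 1 region of 1 animal, and no sex is given per animal in the labels. The mice are numbered 1 to 6 after the replicate number of their CX library. For comparison the report uses CX and HIP of 6 Cul3+/- mice at P7, of 6 WT embryos at E17.5 and of 5 WT adults labelled P35. All of these are other animals of the same labelled strain.

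The 2 regions arise side by side from the dorsal telencephalon. The cortex builds 6 layers, and its projection neurons are written here as those of upper and deep layers. They come from progenitors that have mostly left the cell cycle by birth, and the superficial ones send axons to other cortical areas. The hippocampus consists of Ammon's horn (fields CA1 to CA3) and of the dentate gyrus, whose granule neurons are born largely after birth from progenitors that settle inside the gyrus. It lies beside the cortical hem, a source of Wnt proteins and of Cajal-Retzius cells, and along the lateral ventricle with its ciliated ependymal lining. The first postnatal weeks are thus a time of granule neuron production in HIP and of maturation in CX.

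Levels are given as CPM, the counts of a gene per 1000000 counts of the TMM-normalized library, and log2 fold changes are those of CX over HIP, so that a positive value means a higher level in CX. Genes were tested by edgeR's quasi-likelihood method with the mouse as a block. A gene counts as called where its p, adjusted by Benjamini and Hochberg, did not exceed 0.1. A stricter rule added a fold change of at least 2. CPM are not divided by gene length and are compared here between regions for 1 gene, not between genes. In whole tissue, fewer cells of a type and less RNA per cell cannot be told apart. Library totals were 34088843 to 42330773 counts and differed between regions by 210492 counts on average (exact sign-flip permutation test over 6 mice, two-sided, p = 0.906, where 0.0312 is the smallest possible).

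Each CX library was above each HIP library for Cux2 and Foxp2, markers of upper-layer and deep-layer cortical neurons. Each HIP library was above each CX library for Prox1 and Zbtb20, markers of dentate gyrus and hippocampus. These 4 were picked from lists, given below, in which other members went the other way. Those were 1 of 12 upper-layer, 3 of 15 deep-layer, 3 of 14 dentate and 5 of 17 Ammon's horn genes. The first principal component held 63.7% of the variance of log2 CPM and separated the 6 CX from the 6 HIP libraries. Both libraries of mouse 4 stood apart from the rest on the second (11.7%). The HIP library of mouse 5 was the highest of the 6 HIP libraries for 66 of the 95 protein-coding genes that were at least 4-fold higher in CX, at a median of 1.60 times the median of the other HIP libraries. These libraries and genes were singled out after their values were seen. The CX library of mouse 1 had 16.6 CPM of Eomes, a gene of intermediate progenitors, against 0.290 to 1.12 CPM in the other CX libraries. The CX library of mouse 2 had 20.2 CPM of the striatal peptide gene Penk against 3.03 to 6.45 CPM. The part of these libraries in each result was followed by leaving out each mouse in turn.

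Of 17841 genes tested, 10688 (59.9%) were called, 5662 (31.7%) higher in CX and 5026 (28.2%) higher in HIP. Which region held more calls was not stable. With upper-quartile normalization the counts were 4897 in CX and 6009 in HIP, without the low-count filter 5452 in CX and 5523 in HIP, and more genes were called higher in HIP also without mouse 1 (4897 in CX and 5077 in HIP), mouse 2 (4921 in CX and 5125 in HIP), mouse 4 (5181 in CX and 5403 in HIP) or mouse 6 (4826 in CX and 4847 in HIP). Most of these differences were small. The median size was 1.33-fold, and 64.2% of the calls were below 1.5-fold. The stricter rule kept 1844 genes (10.3%), 1148 higher in CX (6.43%) and 696 higher in HIP (3.9%). At 4-fold or more there were 223 genes higher in CX and 222 higher in HIP, and at 8-fold or more 43 and 67. The 6 CX and the 6 HIP libraries did not overlap for 4957 genes (27.8%). Counts of list members below are to be read against these shares. The animal names begin with C1 for mice 1 and 2, with C2 for mice 3, 4 and 6 and with C4 for mouse 5, a prefix the labels do not explain. Within the 3 C2 mice 7485 genes were called, and within the 2 C1 mice 7996, while the 1 C4 mouse allowed no test.

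The excess of 2-fold calls in CX of WT mice lay in the annotation class TEC, which holds features still to be checked by experiment. Of 1058 TEC features tested, 465 were at least 2-fold higher in CX and 8 in HIP. Among sense-intronic features the counts were 39 and 0 of 101. Protein-coding genes were divided the other way, with 487 at least 2-fold higher in CX and 605 in HIP of 14753 tested. Of the 512 TEC and sense-intronic features called at 2-fold, 454 lay inside a tested protein-coding gene on the same strand, in 207 such genes. The host gene was itself called in the same direction for 358 of them and in the opposite direction for 14. Reads of such a feature and of unspliced host RNA cannot be told apart in gene counts, so these features are uncertain as separate genes. They took 0.179% to 0.307% of the counts of a CX library and 0.106% to 0.209% of a HIP library. The share was higher in CX in each of the 6 mice, with the libraries of mouse 4 the highest in both regions. In Cul3+/- mice at P7 it was higher in CX in 4 of 6. The part of this share in the calls was not tested.

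**Figure D1:**
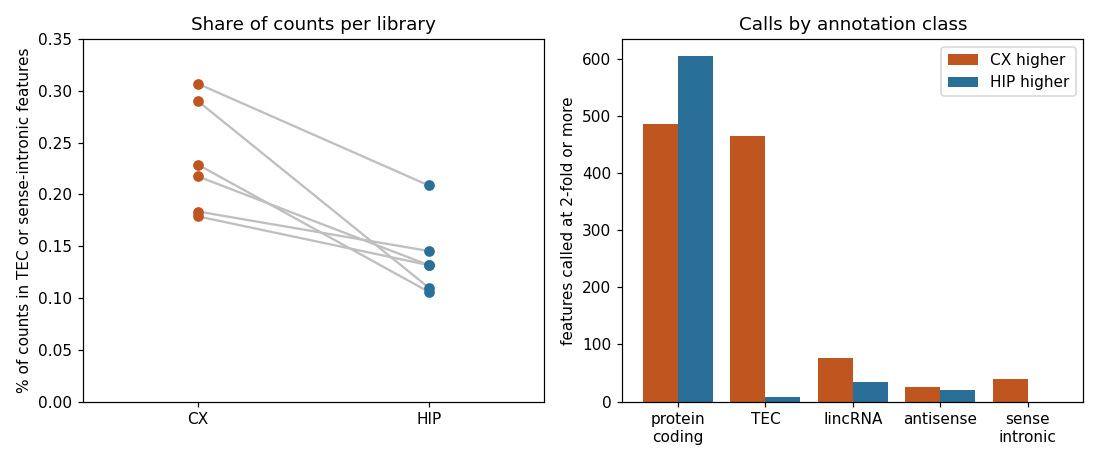
Left, percentage of each library's counts in TEC and sense-intronic features, with a line joining the 2 libraries of a mouse. Right, number of features called at 2-fold or more by annotation class and direction; protein-coding calls number 487 in CX and 605 in HIP, TEC calls 465 and 8.

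Genes of cortical projection neurons were higher in CX. Of 12 genes listed for upper-layer neurons, 11 were higher in CX and 1 in HIP, with a median log2 fold change of 1.07 against 0.00374 over all genes tested. Mef2c, a transcription factor of maturing excitatory neurons, had one of the 5 smallest p-values in the direction of CX. Its level was 1403 to 2011 CPM in CX (median 1655) and 110.2 to 169.6 CPM in HIP (median 122), a 13.2-fold difference (log2 fold change 3.73, SE 0.065, edgeR adjusted p = 9.08e-09). The groups did not overlap, and the HIP library of mouse 5 was the highest of its group. The POU factor gene Pou3f2 was also higher in CX without overlap (log2 fold change 2.12, SE 0.079, edgeR adjusted p = 1.54e-07). So was Cux2, a homeobox gene of superficial neurons (log2 fold change 1.74, SE 0.083, edgeR adjusted p = 5.09e-07). Mdga1, a cell adhesion gene used as an upper-layer marker, was the 1 member higher in HIP (log2 fold change −0.23, SE 0.080, edgeR adjusted p = 0.0359).

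Deep-layer and subplate genes were divided. Of 15, 12 were higher in CX and 3 in HIP (median log2 fold change 0.75), yet the summed level of the list was 830.1 to 972 CPM in CX and 1125 to 1339 CPM in HIP. Crym, which encodes a thyroid hormone binding protein, held most of the HIP sum. Its level was 648 to 825 CPM in HIP (median 705) and 103 to 182 CPM in CX (median 137), and the HIP libraries were all above the CX libraries (log2 fold change −2.41, SE 0.13, edgeR adjusted p = 8.96e-07). Foxp2, a transcription factor of layer 6 neurons, went the other way at 17.8 to 32.6 CPM in CX (median 23.8) and 1.97 to 3.37 CPM in HIP (median 2.53) (log2 fold change 3.18, SE 0.12, edgeR adjusted p = 1.38e-07). Among genes of the subplate, the transient layer under the cortex, Cplx3 (a complexin) was at 5.86 to 11.4 CPM in CX (median 8.00) and 0.0923 to 1.32 CPM in HIP (median 0.289). The highest HIP value was that of mouse 5, and none overlapped CX (log2 fold change 4.41, SE 0.28, edgeR adjusted p = 2.54e-06). Syt6, a synaptotagmin of deep-layer neurons, was 5.56-fold higher in CX (log2 fold change 2.47, SE 0.14, edgeR adjusted p = 1.20e-06). Bcl11b, needed for subcortical projection neurons and also expressed in hippocampal neurons, was higher in HIP with overlapping groups (log2 fold change −0.51, SE 0.060, edgeR adjusted p = 1.07e-04). The sulfotransferase gene Hs3st4 had the same direction (log2 fold change −0.19, SE 0.057, edgeR adjusted p = 0.0181).

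**Figure D2:**
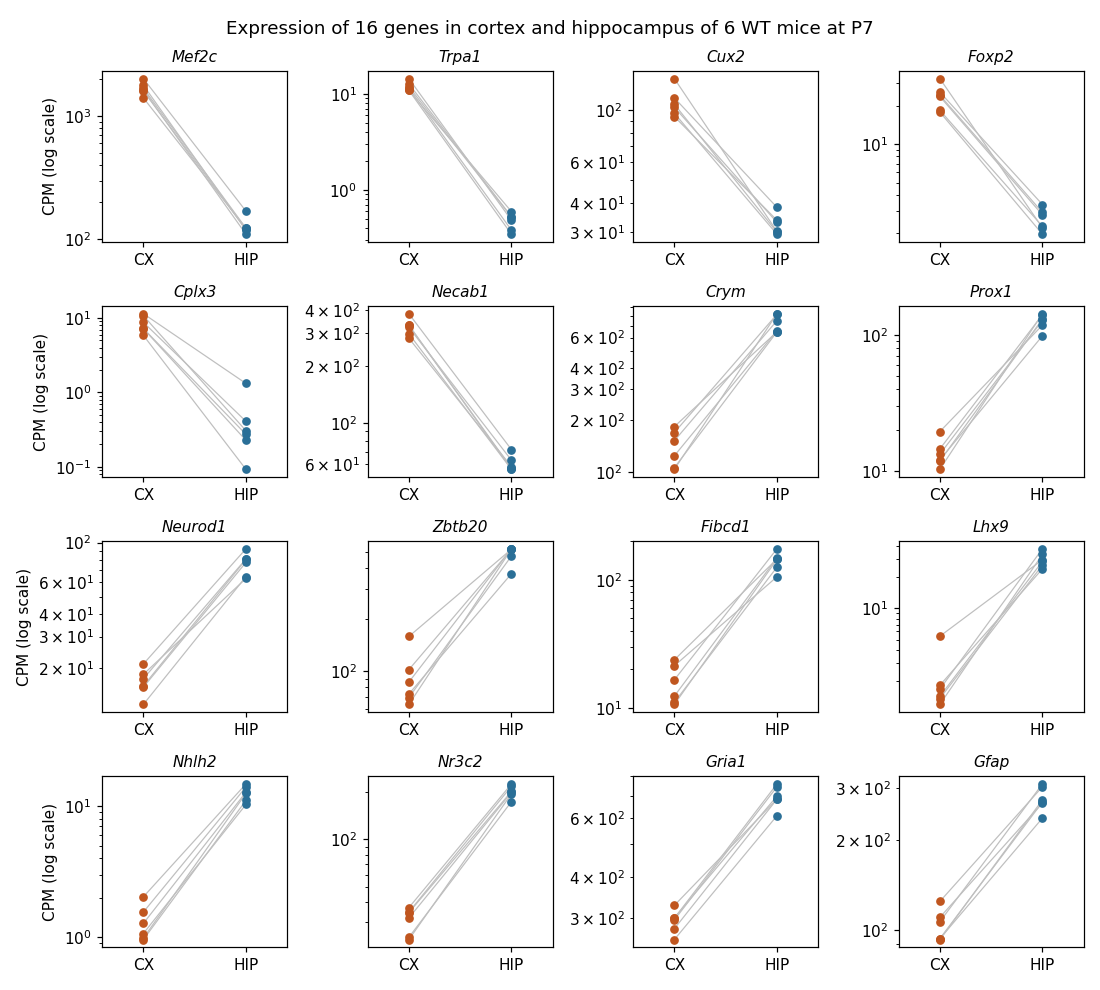
CPM (log axes) of 16 genes in the CX (orange) and HIP (blue) library of each of 6 WT mice at P7, with a line joining the libraries of a mouse. The CX and HIP points do not overlap for any of these 16 genes; the HIP library of mouse 5 is the highest of its group for 5 of the 6 genes higher in CX, Mef2c, Cux2, Foxp2, Cplx3 and Necab1.

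Genes of dentate granule neurons were mostly higher in HIP. Of 14, 3 were higher in CX and 11 in HIP, with a median log2 fold change of −0.91. The summed level of the list was 271 to 418 CPM in CX and 368 to 453 CPM in HIP, with overlap. Prox1, the homeobox gene that fixes granule cell identity, was at 98.2 to 143 CPM in HIP (median 129) and 10.3 to 19.5 CPM in CX (median 12.7). The lowest HIP library held about 5 times the highest CX library (log2 fold change −3.23, SE 0.13, edgeR adjusted p = 2.43e-07). Neurod1, a differentiation factor of granule neurons, was 4.54-fold higher in HIP (log2 fold change −2.18, SE 0.076, edgeR adjusted p = 1.24e-07). Lct, the lactase gene used as a granule cell marker, was at 9.99 to 15.9 CPM in HIP (median 12.8) and 1.10 to 2.51 CPM in CX (median 2.04) (log2 fold change −2.72, SE 0.10, edgeR adjusted p = 1.54e-07). The 3 members higher in CX, unlike the list's name, were Pdzd2, Plk5 and Glis3. Pdzd2, a gene of a PDZ-domain protein, was 5.06-fold higher in CX (log2 fold change 2.34, SE 0.096, edgeR adjusted p = 2.37e-07), with the CX library of mouse 4 at 288 CPM, the highest of its group. Plk5, a polo-like kinase gene (log2 fold change 0.76, SE 0.16, edgeR adjusted p = 0.00363), was higher in CX by less than 2-fold. So was the zinc-finger gene Glis3 (log2 fold change 0.66, SE 0.14, edgeR adjusted p = 0.00303).

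In Ammon's horn genes the direction was less uniform. Of 17, 5 were higher in CX and 10 in HIP, and 2 did not pass the test (median −0.36). Zbtb20, a zinc-finger factor required for hippocampal identity, ranged over 371 to 519.8 CPM in HIP (median 517) and 63.4 to 159 CPM in CX (median 79.4), without overlap (log2 fold change −2.46, SE 0.15, edgeR adjusted p = 1.92e-06). The lowest HIP value was again that of mouse 5, at 371 CPM. Fibcd1, a marker of CA1 neurons, was at 106 to 175 CPM in HIP (median 145) and 10.6 to 23.7 CPM in CX (median 14.4) (log2 fold change −3.19, SE 0.19, edgeR adjusted p = 1.98e-06). Grik4, a high-affinity kainate receptor subunit of CA3, was 3.22-fold higher in HIP (log2 fold change −1.69, SE 0.088, edgeR adjusted p = 8.22e-07). Mpped1, a metallophosphoesterase gene, was higher in CX (log2 fold change 1.22, SE 0.095, edgeR adjusted p = 8.74e-06). So were Ccn3, a matricellular protein gene (log2 fold change 0.98, SE 0.24, edgeR adjusted p = 0.00783), and Wfs1, an endoplasmic reticulum protein gene (log2 fold change 0.21, SE 0.049, edgeR adjusted p = 0.00585).

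Most genes of Cajal-Retzius cells, the early-born neurons that secrete reelin at the brain surface and along the hippocampal fissure, were higher in HIP. Of 10, 1 was higher in CX and 8 in HIP, and 1 did not pass the test, with a median of −1.43. Nhlh2, a helix-loop-helix factor gene, was at 10.3 to 14.8 CPM in HIP (median 12.6) and 0.961 to 2.03 CPM in CX (median 1.17), and the lowest HIP library was about 5 times the highest CX library (log2 fold change −3.28, SE 0.11, edgeR adjusted p = 1.00e-07). Trp73, whose product is needed for the survival of these cells, had 5.39 to 7.59 CPM in HIP (median 7.22) and 1.139 to 2.77 CPM in CX (median 1.75) (log2 fold change −1.97, SE 0.14, edgeR adjusted p = 4.86e-06). Ndnf, a secreted factor gene, was 2.07-fold higher in HIP (log2 fold change −1.05, SE 0.070, edgeR adjusted p = 3.28e-06). The calcium channel subunit gene Cacna2d2 was the member called higher in CX (log2 fold change 0.69, SE 0.085, edgeR adjusted p = 1.42e-04). Barhl2 did not pass the test (log2 fold change −1.18), and its CX level was 0.283 CPM or less in 5 libraries but 1.39 CPM in mouse 2. It was called higher in HIP by DESeq2 (log2 fold change −1.74, adjusted p = 0.0137), by edgeR's likelihood ratio test (adjusted p = 0.0191) and without the low-count filter (edgeR adjusted p = 0.0959). Without mouse 2 it was also called, with a log2 fold change of −2.20.

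Transcription factors that pattern the forebrain went in both directions. Of 15, 6 were higher in CX and 7 in HIP, and 2 did not pass the test. Lhx9, a LIM-homeobox gene of medial pallium and thalamus, was at 24.1 to 37.5 CPM in HIP (median 28.9) and 1.19 to 5.40 CPM in CX (median 1.55) (log2 fold change −3.91, SE 0.27, edgeR adjusted p = 4.50e-06). The CX library of mouse 2 held the 5.40 CPM and the other CX libraries 1.82 CPM or less. Emx2, a homeobox gene that promotes caudal and medial fates and hippocampal growth, was 3.78-fold higher in HIP (log2 fold change −1.92, SE 0.077, edgeR adjusted p = 2.05e-07). Its relative Emx1 was 1.43-fold higher in CX (log2 fold change 0.51, SE 0.089, edgeR adjusted p = 0.00110). Meis2, a TALE homeobox gene, was higher in CX at 97.8 to 178 CPM in CX (median 111) and 27.1 to 53.5 CPM in HIP (median 42.6) (log2 fold change 1.56, SE 0.12, edgeR adjusted p = 8.68e-06). Id2, an inhibitor of helix-loop-helix factors, was 1.97-fold higher (log2 fold change 0.98, SE 0.049, edgeR adjusted p = 6.71e-07). Bhlhe22, which acts in the wiring of projection neurons, was higher in HIP (log2 fold change −0.89, SE 0.078, edgeR adjusted p = 1.74e-05).

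Of 38 Wnt pathway genes tested from 40 listed, 11 were higher in CX and 18 in HIP, and 9 did not pass the test (median −0.18). Among the ligands, Wnt8b, a hem and hippocampal gene, was read by 1 count over the 6 CX libraries and by 185 counts over the 6 HIP libraries. The ratio of HIP to CX was 186, with an exact 95% interval of 33.0 to 7388 that covers counting error only. The HIP level itself was low, 0.525 to 1.25 CPM. Wnt5a was at 23.1 to 26.9 CPM in HIP (median 25.5) and 10.8 to 16.1 CPM in CX (median 11.7) (log2 fold change −1.05, SE 0.069, edgeR adjusted p = 3.09e-06). The receptors were divided. Fzd1 was 2.29-fold higher in HIP (log2 fold change −1.19, SE 0.062, edgeR adjusted p = 8.22e-07). Fzd3, which also guides axons, was 1.59-fold higher in CX (log2 fold change 0.67, SE 0.053, edgeR adjusted p = 8.99e-06). The secreted antagonist gene Sfrp1 was higher in CX without overlap, at 24.4 to 34.2 CPM in CX (median 30.4) and 9.66 to 14.9 CPM in HIP (median 12.9) (log2 fold change 1.25, SE 0.053, edgeR adjusted p = 2.68e-07). So was Lgr6, a receptor for R-spondins (log2 fold change 1.502, SE 0.13, edgeR adjusted p = 1.40e-05). The pathway's usual target Axin2 did not pass the test (log2 fold change 0.045).

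**Figure D3:**
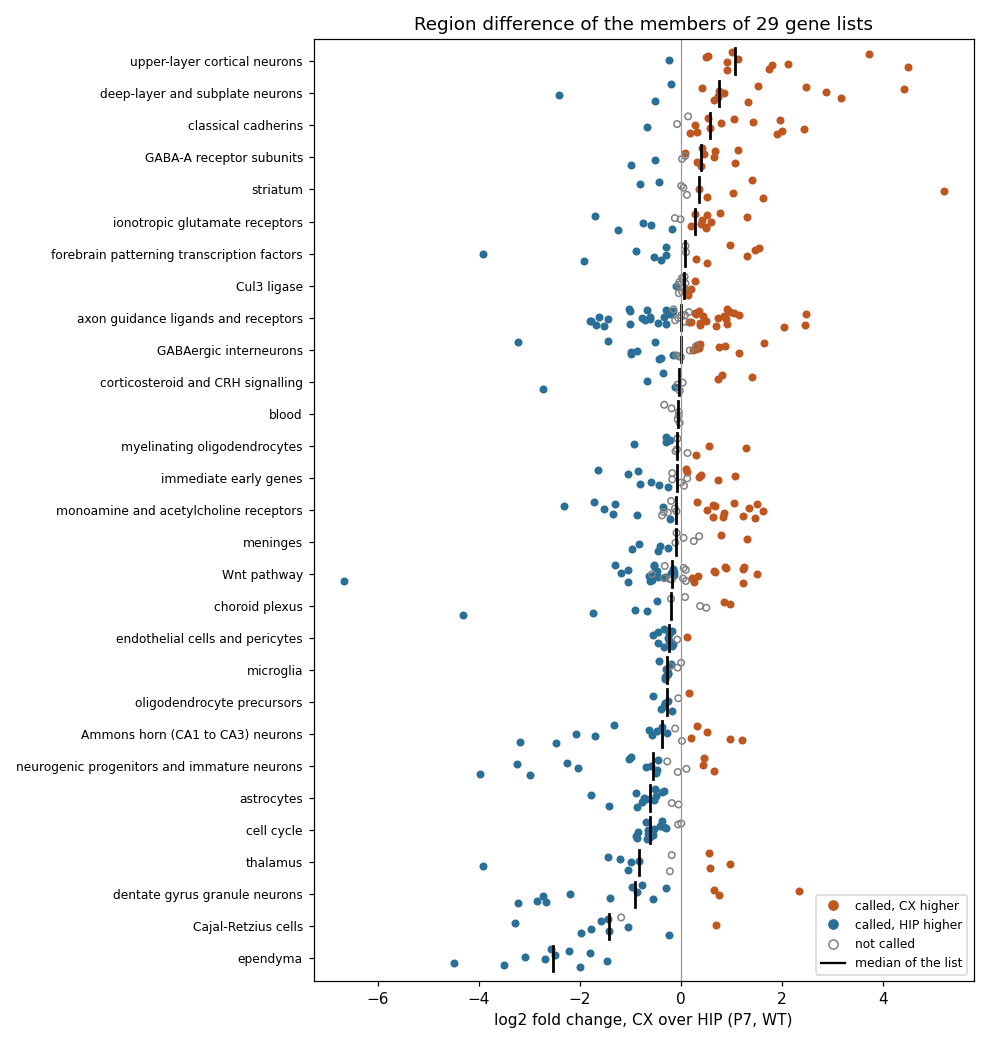
Log2 fold change of CX over HIP for every tested member of 29 gene lists; filled points were called (orange higher in CX, blue higher in HIP), open points were not, and black bars mark list medians. The ependyma list has the lowest median, −2.53, and the upper-layer list the highest, 1.07.

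Cell cycle genes were higher in HIP. Of 18 cell cycle genes, 0 were higher in CX and 16 in HIP, and 2 did not pass the test (median −0.62), against 28.2% of all genes called higher in HIP. The summed level of the list was 217 to 284 CPM in CX and 310.1 to 404 CPM in HIP, without overlap. Top2a, a topoisomerase of dividing cells, was at 41.2 to 57.2 CPM in HIP (median 47.1) and 20.2 to 31.6 CPM in CX (median 26.6) (log2 fold change −0.86, SE 0.076, edgeR adjusted p = 1.84e-05). Mki67, the proliferation marker, was 1.60-fold higher in HIP (log2 fold change −0.68, SE 0.068, edgeR adjusted p = 3.84e-05). Mcm2, a replication licensing gene, was 1.53-fold higher (log2 fold change −0.61, SE 0.061, edgeR adjusted p = 3.92e-05). None of the 18 reached 2-fold.

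Among 18 genes of neurogenic progenitors and immature neurons, 3 were higher in CX and 12 in HIP, and 3 did not pass the test (median −0.55). Yet their summed level was 1137 to 1596 CPM in CX (median 1505) and 1236 to 1651 CPM in HIP (median 1325), with overlap. Neurog2, a proneural factor gene, was at 1.72 to 4.36 CPM in HIP (median 3.33) and 0.0290 to 0.396 CPM in CX (median 0.188) (log2 fold change −3.97, SE 0.21, edgeR adjusted p = 9.13e-07). Hopx, a marker of radial glia and of dentate progenitors, was 4.12-fold higher in HIP (log2 fold change −2.04, SE 0.080, edgeR adjusted p = 1.93e-07). The intermediate filament gene Vim was 1.97-fold higher (log2 fold change −0.98, SE 0.043, edgeR adjusted p = 3.29e-07). Eomes was at 8.89 to 15.8 CPM in HIP (median 10.7) and 0.290 to 16.6 CPM in CX (median 0.858), and the CX library of mouse 1 alone, at 16.6 CPM, reached the HIP range (log2 fold change −2.98, SE 0.65, edgeR adjusted p = 0.00412). Without mouse 1 its log2 fold change was −4.06. Dcx, a microtubule-associated protein of migrating neurons, was higher in CX with overlap, at 378 to 809 CPM in CX (median 549.6) and 289.8 to 415 CPM in HIP (median 320.4) (log2 fold change 0.67, SE 0.14, edgeR adjusted p = 0.00279). Also higher in CX was the surface protein gene Cd24a (log2 fold change 0.47, SE 0.076, edgeR adjusted p = 7.67e-04).

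All 10 ependymal genes were at least 2-fold higher in HIP, without overlap between the regions. The median log2 fold change was −2.53, against 3.9% of all genes at least 2-fold higher in HIP, and the summed level was 7.16 to 16.96 CPM in CX and 39.1 to 65.7 CPM in HIP. Tmem212, a transmembrane protein gene of ciliated cells, was at 2.86 to 4.60 CPM in HIP (median 3.70) and 0 to 0.354 CPM in CX (median 0.118) (log2 fold change −4.50, SE 0.41, edgeR adjusted p = 2.07e-05). Ccdc153, a gene of the motile cilium, was at 4.91 to 8.03 CPM in HIP (median 6.91) and 0.113 to 1.36 CPM in CX (median 0.544) (log2 fold change −3.51, SE 0.35, edgeR adjusted p = 3.57e-05). Neither overlapped between regions. Mia followed (log2 fold change −3.07, SE 0.18, edgeR adjusted p = 1.80e-06). The others named for their values were the tektin gene Tekt1 (log2 fold change −2.22, SE 0.18, edgeR adjusted p = 1.19e-05) and Hydin, needed for ciliary beating (log2 fold change −2.56, SE 0.22, edgeR adjusted p = 1.63e-05). The dynein light chain gene Dynlrb2 (log2 fold change −2.69, SE 0.28, edgeR adjusted p = 4.88e-05) and Fam183b (log2 fold change −1.80, SE 0.17, edgeR adjusted p = 3.24e-05) also passed, and are named for the sequences below. The ciliated cells line the ventricle, and the values of choroid plexus, the other ventricular tissue, are given below.

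Genes of motile cilia are known targets of RFX transcription factors, which bind the X-box. The core GTTGCC of this motif was searched on both strands in the RefSeq promoter windows (GRCm38.p6, from 250 bases before to 50 after the start). This motif was chosen after the expression values were seen. It was found for 5 of the 8 ependymal genes with a window, against 14.9% of 12145 tested genes with one, 19.3% of those at least 2-fold higher in HIP and 13.9% of those at least 2-fold higher in CX. A gene with several windows counted once, where any of them held the core. The windows holding it follow for the 5 genes, because these genes were higher in HIP together. Tekt1 has another window, which does not hold the core and is not printed. Capitals mark the core on either strand, as GTTGCC or GGCAAC. A match is a description, not a bound site.
Ccdc153, chr9:44240427-44240726, + strand: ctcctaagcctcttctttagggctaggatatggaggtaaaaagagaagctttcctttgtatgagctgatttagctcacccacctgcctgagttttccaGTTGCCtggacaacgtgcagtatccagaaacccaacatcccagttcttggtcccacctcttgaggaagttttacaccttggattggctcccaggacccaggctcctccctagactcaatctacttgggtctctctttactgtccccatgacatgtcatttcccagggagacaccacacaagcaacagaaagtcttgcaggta
Dynlrb2, chr8:116504765-116505064, + strand: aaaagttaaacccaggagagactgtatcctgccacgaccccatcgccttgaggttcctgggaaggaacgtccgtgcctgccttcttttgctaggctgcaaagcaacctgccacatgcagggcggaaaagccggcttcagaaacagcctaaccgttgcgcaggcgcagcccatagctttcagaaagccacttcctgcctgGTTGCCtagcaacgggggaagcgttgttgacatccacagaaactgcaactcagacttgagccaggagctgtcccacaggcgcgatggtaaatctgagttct
Fam183b, chr11:58801911-58802210, − strand: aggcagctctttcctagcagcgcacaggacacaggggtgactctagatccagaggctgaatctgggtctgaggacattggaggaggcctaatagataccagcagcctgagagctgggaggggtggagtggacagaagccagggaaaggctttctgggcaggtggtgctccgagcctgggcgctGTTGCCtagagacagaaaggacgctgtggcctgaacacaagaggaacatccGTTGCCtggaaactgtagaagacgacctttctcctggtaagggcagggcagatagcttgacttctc
Tekt1, chr11:72361833-72362132, − strand: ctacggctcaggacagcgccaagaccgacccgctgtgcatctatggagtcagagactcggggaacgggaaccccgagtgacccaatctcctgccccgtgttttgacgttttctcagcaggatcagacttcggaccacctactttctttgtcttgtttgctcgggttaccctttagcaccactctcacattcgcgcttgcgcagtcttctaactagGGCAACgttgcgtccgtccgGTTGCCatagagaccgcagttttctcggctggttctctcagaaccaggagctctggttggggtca
Hydin, chr8:110266727-110267026, + strand: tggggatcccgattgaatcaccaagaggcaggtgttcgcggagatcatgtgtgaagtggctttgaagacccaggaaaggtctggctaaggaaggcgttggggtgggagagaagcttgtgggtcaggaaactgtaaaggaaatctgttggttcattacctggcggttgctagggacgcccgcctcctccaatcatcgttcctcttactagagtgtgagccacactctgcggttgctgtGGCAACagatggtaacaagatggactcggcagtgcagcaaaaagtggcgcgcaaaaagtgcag
The core CTTTGA of TCF/LEF factors, the nuclear partners of Wnt signalling, was held on either strand by 18.7% of the genes at least 2-fold higher in HIP, 18.2% of those higher in CX and 14.4% of all tested genes with a window.

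Glial and vascular genes were modestly higher in HIP. Of 14 astrocyte genes, 0 were higher in CX and 12 in HIP, and 2 did not pass the test (median −0.61). Gfap, the astrocytic filament gene, was at 238 to 309 CPM in HIP (median 271) and 92.9 to 125 CPM in CX (median 100.1) (log2 fold change −1.42, SE 0.051, edgeR adjusted p = 1.32e-07). The water channel gene Aqp4 was 1.81-fold higher (log2 fold change −0.86, SE 0.033, edgeR adjusted p = 1.87e-07), without overlap. The glutamate transporter gene Slc1a3 was 1.69-fold higher (log2 fold change −0.76, SE 0.034, edgeR adjusted p = 3.62e-07), again without overlap. The 2 astrocyte genes that did not pass were Aldh1l1 (log2 fold change −0.044) and Slc1a2 (−0.18), whose CX library of mouse 4 held 1946 CPM against 1066 CPM or less in the other 5. Without mouse 4, Slc1a2 was called higher in HIP (log2 fold change −0.35).

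Of 12 microglial genes, 0 were higher in CX and 9 in HIP, and 3 did not pass the test, and no call reached 2-fold. P2ry12, a purine receptor of resting microglia, was at 16.9 to 21.8 CPM in HIP (median 19.5) and 14.1 to 17.46 CPM in CX (median 15.6) (log2 fold change −0.30, SE 0.043, edgeR adjusted p = 3.48e-04) and the ranges overlapped. Cx3cr1, the fractalkine receptor (log2 fold change −0.30, SE 0.059, edgeR adjusted p = 0.00212), and Itgam (log2 fold change −0.43, SE 0.078, edgeR adjusted p = 0.00156) were similar in size. Of 13 endothelial and pericyte genes, 1 was higher in CX and 11 in HIP, and 1 did not pass the test. The 1 in CX, the transporter gene Slco1a4 (log2 fold change 0.13, SE 0.060, edgeR adjusted p = 0.0920), was called in none of the 14 alternatives and is named after its value was seen. The pericyte gene Rgs5 was at 178 to 198 CPM in HIP (median 189) and 124 to 137 CPM in CX (median 129.5) (log2 fold change −0.54, SE 0.037, edgeR adjusted p = 4.18e-06). The VEGF receptor gene Kdr (log2 fold change −0.45, SE 0.037, edgeR adjusted p = 1.05e-05) and the PDGF receptor gene Pdgfrb (log2 fold change −0.44, SE 0.045, edgeR adjusted p = 4.30e-05) were also higher in HIP. Precursors of oligodendrocytes had the same direction, with 6 of 8 genes higher in HIP. Among them were the proteoglycan gene Cspg4 (log2 fold change −0.39, SE 0.041, edgeR adjusted p = 5.21e-05) and the lineage factors Olig1 (log2 fold change −0.32, SE 0.051, edgeR adjusted p = 6.36e-04) and Olig2 (log2 fold change −0.32, SE 0.053, edgeR adjusted p = 8.34e-04). The 1 called the other way was Lhfpl3 (log2 fold change 0.17, SE 0.051, edgeR adjusted p = 0.0203).

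Myelin genes were divided, 11 of 13 listed being tested. Of these, 3 were higher in CX and 4 in HIP, and 4 did not pass the test, and no member was free of overlap. Mbp, myelin basic protein, was at 69.8 to 90.5 CPM in CX (median 80.2) and 55.5 to 72.1 CPM in HIP (median 65.9) (log2 fold change 0.31, SE 0.043, edgeR adjusted p = 3.12e-04). Cldn11, a claudin of myelin, was 1.48-fold higher in CX (log2 fold change 0.56, SE 0.16, edgeR adjusted p = 0.0152). Mobp (log2 fold change 1.295, SE 0.19, edgeR adjusted p = 3.77e-04) was below 2.5 CPM in every library. Ermn, a late myelin gene, was higher in HIP (log2 fold change −0.94, SE 0.15, edgeR adjusted p = 6.43e-04). The calls of Mbp and Ermn were lost with the cerebellum libraries in the fit (edgeR adjusted p = 0.184 and 0.109). Also higher in HIP were Bcas1 (log2 fold change −0.22, SE 0.077, edgeR adjusted p = 0.0390) and Enpp6 (log2 fold change −0.29, SE 0.11, edgeR adjusted p = 0.0466), genes of newly formed oligodendrocytes.

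Markers of tissues next to the regions were read as a check of the dissection. Of 12 meningeal genes, 2 were higher in CX and 5 in HIP, and 5 did not pass the test, and their summed level was 255 to 393 CPM in CX and 239.6 to 522 CPM in HIP, with wide overlap. Lum, a proteoglycan gene (log2 fold change −0.96, SE 0.12, edgeR adjusted p = 1.58e-04), and the collagen genes Col3a1 (log2 fold change −0.83, SE 0.13, edgeR adjusted p = 6.61e-04) and Col1a2 (log2 fold change −0.41, SE 0.11, edgeR adjusted p = 0.0133) were higher in HIP. Ogn, a proteoglycan gene (log2 fold change 1.31, SE 0.26, edgeR adjusted p = 0.00235), and the transporter gene Slc13a4 (log2 fold change 0.80, SE 0.22, edgeR adjusted p = 0.0132) were higher in CX. Of 11 choroid plexus genes tested from 12, 2 were higher in CX and 5 in HIP, and 4 did not pass the test, with summed levels of 11.2 to 47.8 CPM in CX and 17.46 to 163 CPM in HIP that overlapped. The folate receptor gene Folr1 (log2 fold change −1.73, SE 0.20, edgeR adjusted p = 9.93e-05), the klotho gene Kl (log2 fold change −0.67, SE 0.096, edgeR adjusted p = 3.82e-04) and Sostdc1 (log2 fold change −0.48, SE 0.13, edgeR adjusted p = 0.0135) were higher in HIP. The prolactin receptor gene Prlr (log2 fold change 0.86, SE 0.18, edgeR adjusted p = 0.00362) was higher in CX. Of 6 globin and erythroid genes tested, 0 were called by edgeR's quasi-likelihood test, 0 had an unadjusted p under 0.05 and DESeq2 called 0. Their summed level was 215 to 376 CPM in CX and 233 to 364 CPM in HIP.

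Of 11 thalamic genes tested, 3 were higher in CX and 6 in HIP, and 2 did not pass the test. Lhx9 and Calb2, described with other lists, were 2 of those higher in HIP. Prkcd, a protein kinase C gene, was 2.05-fold higher in HIP (log2 fold change −1.04, SE 0.061, edgeR adjusted p = 1.76e-06). The nuclear receptor gene Rora (log2 fold change 0.97, SE 0.050, edgeR adjusted p = 7.74e-07) and the RNA editing gene Adarb1 (log2 fold change 0.56, SE 0.053, edgeR adjusted p = 2.65e-05) were higher in CX. So was Slc17a6, a vesicular glutamate transporter typical of subcortical neurons, at 76.0 to 105 CPM in CX (median 83.1) and 49.1 to 82.2 CPM in HIP (median 55.3) (log2 fold change 0.57, SE 0.11, edgeR adjusted p = 0.00218). Of 11 striatal genes tested, 6 were higher in CX and 2 in HIP, and 3 did not pass the test. At 2-fold or more 4 were higher in CX and 0 in HIP. The summed striatal level was 102 to 176 CPM in CX and 54.4 to 62.4 CPM in HIP, without overlap. The 176 CPM was that of the CX library of mouse 2. The dopamine receptor gene Drd1 was at 13.0 to 21.7 CPM in CX (median 15.3) and 4.78 to 5.61 CPM in HIP (median 5.05) (log2 fold change 1.62, SE 0.094, edgeR adjusted p = 1.57e-06). The orphan receptor gene Gpr6 was 2.64-fold higher in CX (log2 fold change 1.401, SE 0.12, edgeR adjusted p = 1.49e-05). The retinoid receptor genes Rxrg (log2 fold change −0.81, SE 0.19, edgeR adjusted p = 0.00536) and Rarb (log2 fold change −0.42, SE 0.12, edgeR adjusted p = 0.0172) were higher in HIP. Penk did not pass the test (log2 fold change 0.052) and was highest in the CX library of mouse 2. Without that mouse the log2 fold change was −0.30.

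Interneuron genes showed no common direction. Of 23, 9 were higher in CX and 9 in HIP, and 5 did not pass the test (median 0.0023). Satb1, a chromatin organizer of interneurons that is also expressed in projection neurons, was at 163 to 279 CPM in CX (median 190.2) and 57.0 to 77.0 CPM in HIP (median 62.4) (log2 fold change 1.64, SE 0.085, edgeR adjusted p = 8.21e-07). Vip, the vasoactive intestinal peptide gene, was at 7.70 to 12.6 CPM in CX (median 10.4) and 3.66 to 6.03 CPM in HIP (median 4.45) (log2 fold change 1.16, SE 0.12, edgeR adjusted p = 5.13e-05). Sox6, a factor of interneurons from the medial ganglionic eminence, was 1.31-fold higher in CX (log2 fold change 0.38, SE 0.060, edgeR adjusted p = 5.96e-04). Calb2, the calretinin gene, which Cajal-Retzius cells also express, was at 72.2 to 99.7 CPM in HIP (median 86.6) and 21.8 to 51.3 CPM in CX (median 27.5) (log2 fold change −1.44, SE 0.14, edgeR adjusted p = 3.01e-05). The serotonin receptor gene Htr3a was 1.81-fold higher in HIP (log2 fold change −0.86, SE 0.083, edgeR adjusted p = 3.25e-05). The log2 fold changes of Lhx6, the defining factor of the medial lineage, and of the somatostatin gene Sst were −0.042 (SE 0.070) and −0.089 (SE 0.13), and neither passed the test.

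Subunits of 1 receptor family differed in direction. Of 17 ionotropic glutamate receptor genes, 10 were higher in CX and 5 in HIP, and 2 did not pass the test. Gria1, an AMPA receptor subunit abundant in hippocampal synapses, was at 609 to 758 CPM in HIP (median 690.0) and 259 to 328 CPM in CX (median 299) (log2 fold change −1.24, SE 0.044, edgeR adjusted p = 1.32e-07). Gria4, a subunit of early networks and interneurons, was 1.41-fold higher in CX (log2 fold change 0.50, SE 0.056, edgeR adjusted p = 8.31e-05). The NMDA receptor subunit gene Grin2a was higher in HIP (log2 fold change −0.59, SE 0.078, edgeR adjusted p = 2.19e-04). The kainate receptor subunit gene Grik3 was 2.46-fold higher in CX (log2 fold change 1.301, SE 0.086, edgeR adjusted p = 3.10e-06), opposite to Grik4 above.

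Of 13 GABA-A receptor subunit genes tested from 15, 9 were higher in CX and 2 in HIP, and 2 did not pass the test. The 9 became 7 or 8 in each of the 14 alternatives. The 2 higher in HIP were Gabra2, at 278 to 354 CPM in HIP (median 298) and 141 to 175 CPM in CX (median 156) (log2 fold change −0.98, SE 0.044, edgeR adjusted p = 3.64e-07), and Gabra5, the subunit of tonic inhibition in hippocampal pyramidal cells (log2 fold change −0.51, SE 0.041, edgeR adjusted p = 1.01e-05). The subunit gene Gabrd was at 10.5 to 14.4 CPM in CX (median 11.7) and 4.57 to 6.27 CPM in HIP (median 5.51) (log2 fold change 1.13, SE 0.077, edgeR adjusted p = 3.80e-06). Gabra3 (log2 fold change 1.08, SE 0.092, edgeR adjusted p = 1.49e-05) and Gabrb2 (log2 fold change 0.65, SE 0.056, edgeR adjusted p = 1.57e-05) were also higher in CX. Among 27 monoamine and acetylcholine receptor genes tested from 30, 13 were higher in CX and 8 in HIP, and 6 did not pass the test. Chrm5, a muscarinic receptor gene, was at 9.55 to 11.8 CPM in HIP (median 10.6) and 1.42 to 3.10 CPM in CX (median 1.95) (log2 fold change −2.31, SE 0.13, edgeR adjusted p = 1.25e-06). The serotonin receptor gene Htr4 (log2 fold change −1.34, SE 0.090, edgeR adjusted p = 3.64e-06) and the adrenergic receptor gene Adra1d (log2 fold change −1.31, SE 0.099, edgeR adjusted p = 7.41e-06) were also higher in HIP. In CX, the adrenergic receptor gene Adra1b (log2 fold change 1.51, SE 0.080, edgeR adjusted p = 8.80e-07) and Htr2a, the main excitatory serotonin receptor of cortex (log2 fold change 1.24, SE 0.078, edgeR adjusted p = 2.54e-06), were higher.

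Of the corticosteroid receptors, 1 differed between the regions. Nr3c2, the mineralocorticoid receptor, was at 173 to 225 CPM in HIP (median 199.9) and 23.2 to 37.0 CPM in CX (median 33.1), a 6.60-fold difference and among the 5 smallest p-values in the direction of HIP (log2 fold change −2.72, SE 0.069, edgeR adjusted p = 3.58e-08). The glucocorticoid receptor gene Nr3c1 did not pass the test, at a log2 fold change of −0.020 (SE 0.048). Crhr1, the main receptor of corticotropin-releasing hormone, was higher in CX at 31.98 to 39.6 CPM in CX (median 37.3) and 11.6 to 16.7 CPM in HIP (median 13.6) (log2 fold change 1.41, SE 0.11, edgeR adjusted p = 7.09e-06). Also higher in CX were its ligand gene Crh (log2 fold change 0.73, SE 0.16, edgeR adjusted p = 0.00350) and Crhr2 (log2 fold change 0.81, SE 0.20, edgeR adjusted p = 0.00838), both below 3 CPM. Hsd11b1, which regenerates active glucocorticoid (log2 fold change −0.68, SE 0.097, edgeR adjusted p = 3.64e-04), and the binding protein gene Crhbp (log2 fold change −0.35, SE 0.13, edgeR adjusted p = 0.0405) were higher in HIP. Of the 10 genes in all, 3 were higher in CX and 4 in HIP, and 3 did not pass the test.

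Axon guidance genes were divided evenly. Of 49, 21 were higher in CX and 21 in HIP, and 7 did not pass the test, and 30 did not overlap between regions. The class 3 semaphorins are secreted repellents. Sema3a was at 32.4 to 53.2 CPM in CX (median 38.5) and 7.33 to 10.7 CPM in HIP (median 9.92) (log2 fold change 2.04, SE 0.086, edgeR adjusted p = 2.69e-07). Sema3f was 5.46-fold higher in CX (log2 fold change 2.45, SE 0.11, edgeR adjusted p = 3.22e-07). Sema3e was at 65.6 to 90.8 CPM in HIP (median 78.9) and 21.1 to 27.3 CPM in CX (median 24.1) (log2 fold change −1.67, SE 0.058, edgeR adjusted p = 1.24e-07). Nrp1, the receptor subunit that binds Sema3a, was higher in HIP, where Sema3a was lower, at 233 to 290.3 CPM in HIP (median 269.6) and 69.3 to 84.2 CPM in CX (median 75.2) (log2 fold change −1.80, SE 0.044, edgeR adjusted p = 2.90e-08). The ephrin receptor gene Epha6 was 3.09-fold higher in HIP (log2 fold change −1.63, SE 0.064, edgeR adjusted p = 1.93e-07). The ephrin gene Efnb2 was 2.08-fold higher in CX (log2 fold change 1.05, SE 0.062, edgeR adjusted p = 1.65e-06). Classical cadherins, the calcium-dependent adhesion proteins, were mostly higher in CX. Of 15, 12 were higher in CX and 1 in HIP, and 2 did not pass the test (median 0.58). Cdh13, a cadherin with a lipid anchor, was at 191 to 213 CPM in CX (median 202) and 67.5 to 82.4 CPM in HIP (median 74.5) (log2 fold change 1.43, SE 0.041, edgeR adjusted p = 5.30e-08). Cdh6 was at 60.5 to 86.8 CPM in CX (median 70.7) and 12.5 to 23.3 CPM in HIP (median 17.9) (log2 fold change 2.01, SE 0.091, edgeR adjusted p = 3.87e-07). Cdh18 was 3.88-fold higher in CX (log2 fold change 1.96, SE 0.13, edgeR adjusted p = 3.08e-06). Cdh9, which acts at mossy fibre synapses, was higher in HIP (log2 fold change −0.67, SE 0.075, edgeR adjusted p = 7.98e-05).

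Immediate early genes, which neuronal activity induces, had no common direction at P7. Of 18, 6 were higher in CX and 7 in HIP, and 5 did not pass the test. The 6 became 4 or 5 in each of the 14 alternatives. The summed level of the list was 418 to 513 CPM in CX and 537 to 591 CPM in HIP, without overlap. Bdnf, the neurotrophin gene, was at 31.4 to 47.3 CPM in HIP (median 37.2) and 9.20 to 14.1 CPM in CX (median 12.5) (log2 fold change −1.64, SE 0.075, edgeR adjusted p = 4.01e-07). Jun (log2 fold change −0.81, SE 0.066, edgeR adjusted p = 1.09e-05) and Btg2 (log2 fold change −0.84, SE 0.080, edgeR adjusted p = 2.86e-05) were also higher in HIP. Npas4, which responds to calcium entry, was at 3.18 to 6.50 CPM in CX (median 4.21) and 1.48 to 2.78 CPM in HIP (median 2.08) (log2 fold change 1.08, SE 0.14, edgeR adjusted p = 1.93e-04). Egr1 (log2 fold change 0.74, SE 0.11, edgeR adjusted p = 5.37e-04) and Nr4a1 (log2 fold change 0.39, SE 0.078, edgeR adjusted p = 0.00243) were also higher in CX.

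Of the genes with the largest log2 fold changes in CX, 6 were outside these lists. Trpa1, an irritant-sensing cation channel, was at 10.9 to 14.5 CPM in CX (median 11.7) and 0.346 to 0.596 CPM in HIP (median 0.505) (log2 fold change 4.66, SE 0.11, edgeR adjusted p = 2.57e-08). Trh, thyrotropin-releasing hormone, was at 3.51 to 5.64 CPM in CX (median 4.59) and 0.138 to 0.482 CPM in HIP (median 0.214) (log2 fold change 4.26, SE 0.23, edgeR adjusted p = 8.96e-07). Aldh1a3, a retinoic acid synthesizing enzyme, was at 6.87 to 20.7 CPM in CX (median 12.7) and 0.458 to 0.992 CPM in HIP (median 0.666) (log2 fold change 4.204, SE 0.19, edgeR adjusted p = 3.60e-07). The CX and HIP libraries did not overlap for any of the 3. The collagen gene Col8a1 (log2 fold change 3.99, SE 0.17, edgeR adjusted p = 3.29e-07), the small heat shock gene Hspb3 (log2 fold change 3.92, SE 0.19, edgeR adjusted p = 4.74e-07) and Trbc2, the constant segment of the T cell receptor beta chain (log2 fold change 3.89, SE 0.20, edgeR adjusted p = 7.20e-07), were also among the 10 largest. Among those of smallest p, Necab1, a calcium-binding protein gene, was at 282 to 381 CPM in CX (median 326) and 56.4 to 71.9 CPM in HIP (median 57.8) (log2 fold change 2.42, SE 0.046, edgeR adjusted p = 9.08e-09). With it stood Dbpht2 (log2 fold change 2.03, SE 0.047, edgeR adjusted p = 2.57e-08) and Gucy1a1, a subunit of the nitric oxide receptor (log2 fold change 1.73, SE 0.046, edgeR adjusted p = 4.66e-08).

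Of the genes with the largest log2 fold changes in HIP, 6 were likewise outside the lists. St18, a zinc-finger factor gene, was at 32.9 to 59.7 CPM in HIP (median 42.4) and 1.28 to 4.36 CPM in CX (median 2.19) (log2 fold change −4.24, SE 0.20, edgeR adjusted p = 5.09e-07). Il16, a gene of an interleukin precursor, was at 26.8 to 45.0 CPM in HIP (median 33.9) and 2.21 to 3.04 CPM in CX (median 2.60) (log2 fold change −3.69, SE 0.080, edgeR adjusted p = 2.27e-08). The interferon-inducible genes Ifi203 (log2 fold change −4.12, SE 0.18, edgeR adjusted p = 3.09e-07) and Mndal (log2 fold change −4.10, SE 0.16, edgeR adjusted p = 2.00e-07) belong to 1 gene cluster of similar sequence and overlap on the same strand. Both are reported as uncertain, since reads may be split between such copies. Spink8, a protease inhibitor gene (log2 fold change −3.81, SE 0.30, edgeR adjusted p = 9.98e-06), and Pdlim3 (log2 fold change −3.62, SE 0.22, edgeR adjusted p = 2.01e-06) were also among the 10 largest. Of those with the smallest p, Cabp7, a neuronal calcium-binding protein gene, was at 40.9 to 71.9 CPM in HIP (median 51.3) and 4.17 to 6.91 CPM in CX (median 5.40) (log2 fold change −3.29, SE 0.078, edgeR adjusted p = 2.57e-08). The adenylate kinase gene Ak4 was another (log2 fold change −1.82, SE 0.049, edgeR adjusted p = 4.66e-08).

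The largest predicted gene models or noncoding genes in CX were 3 neighbours in the GENCODE M21 annotation (GRCm38). Gm38073 (TEC, chr1:124375578-124379242, − strand) was at 3.04 to 6.81 CPM in CX (median 4.98) and 0.0583 to 0.135 CPM in HIP (median 0.0971) (log2 fold change 5.71, SE 0.19, edgeR adjusted p = 1.14e-07). Gm37717 (TEC, chr1:124824702-124827728, − strand; log2 fold change 5.37, SE 0.30, edgeR adjusted p = 1.35e-06) lies within the span of the lincRNA Gm28928 (chr1:124505757-124846039, − strand; log2 fold change 5.25, SE 0.32, edgeR adjusted p = 1.95e-06) on the same strand, so the reads of these 2 may come from 1 transcript. In HIP they were Gm11992 (log2 fold change −2.91, SE 0.32, edgeR adjusted p = 6.70e-05), Gm19935 (log2 fold change −2.68, SE 0.23, edgeR adjusted p = 1.41e-05) and Gm34466 (log2 fold change −2.58, SE 0.22, edgeR adjusted p = 1.47e-05).

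Cul3 itself differed little between regions. It was at 177 to 198 CPM in CX (median 184) and 154 to 182 CPM in HIP (median 171), with ranges that overlapped, 1.10-fold higher in CX (log2 fold change 0.13, SE 0.039, edgeR adjusted p = 0.0170). The call was lost within the 3 C2 mice (edgeR adjusted p = 0.281) and within the 2 C1 mice (0.156). Of 14 genes of the Cul3 ligase and its partners, 4 were higher in CX and 1 in HIP, and 9 did not pass the test, and none reached 2-fold. The called members were Cul3, the adaptor genes Tnfaip1 (log2 fold change 0.21, SE 0.047, edgeR adjusted p = 0.00453) and Spop (log2 fold change 0.27, SE 0.088, edgeR adjusted p = 0.0263), and the adaptor gene Kctd13 (log2 fold change 0.092, SE 0.040, edgeR adjusted p = 0.0839). In the direction of HIP it was Klhl9 (log2 fold change −0.090, SE 0.034, edgeR adjusted p = 0.0511). The CX library of mouse 4 held the highest Spop value of CX, 112 CPM against 79.0 CPM or less in the other 5. Kctd13 was named after its value was seen, and its call was lost in every alternative tried except leaving out mouse 4. Over all 29 lists, the 90 members not called had log2 fold changes between −1.18 and 0.50.

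The same comparison in Cul3+/- mice, which shared no animal with it, asked whether the region differences depended on the mutation. There 9141 of 17829 genes tested (51.3%) were called, 1658 at 2-fold or more (9.3%). Of these 2-fold calls, 775 were higher in CX and 883 in HIP, against 1148 and 696 in WT mice. The excess of 2-fold calls in CX was thus not seen in the mutant mice. Of the 1844 genes called at 2-fold in WT mice, 1769 were tested and 1433 were called in the same direction, with 0 called in the opposite one. The 2-fold lists shared 1277 genes of the same direction, 69.3% of the WT list and 77.0% of the mutant list. The log2 fold change of Mef2c was 3.84 in mutant mice against 3.73 in WT mice, that of Prox1 −3.50 against −3.23, and that of Nr3c2 −2.65 against −2.72. Tested directly, the region by genotype interaction called 0 of 18613 genes in edgeR's quasi-likelihood test, where 1193 had an unadjusted p under 0.05 (6.41%). DESeq2 also called 0 and edgeR's likelihood ratio test 1.

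**Figure D4:**
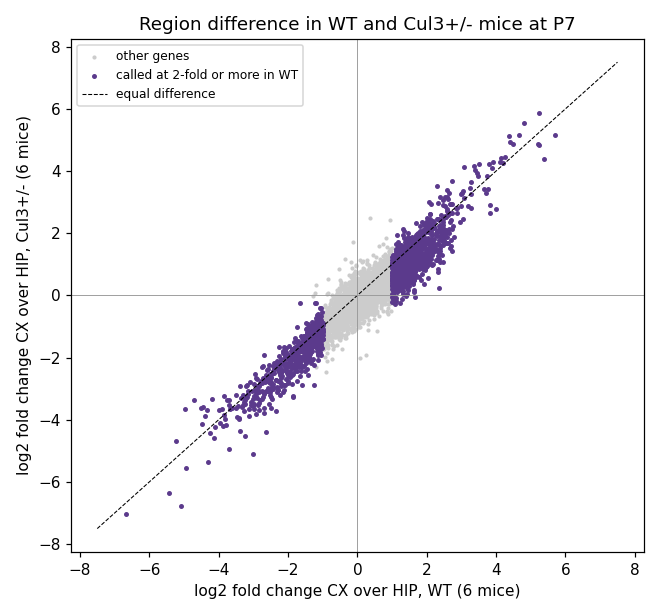
Log2 fold change of CX over HIP at P7 in 6 WT mice (x axis) and in 6 Cul3+/- mice (y axis), 1 point per gene tested in both; purple points were called at 2-fold or more in WT mice and the dashed line marks equal differences. Of the 1769 purple genes, 1433 were called in the same direction in Cul3+/- mice and 0 in the opposite direction.

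The genes that were higher in CX at P7 were followed to the other ages, as were those higher in HIP. Of the 1148 genes at least 2-fold higher in CX at P7, 805 could be tested within E17.5 and 343 were called in the same direction and 61 in the opposite one. Of the 696 HIP genes 382 of 453 were called in the same direction and 8 in the opposite one. Of all genes tested at E17.5, 44.4% were called, 19.0% higher in CX and 25.4% in HIP. In adults, labelled P35, the figures were 752 of 955 for CX and 527 of 604 for HIP, with 21 and 19 called in the opposite direction. Of all genes tested at P35, 57.7% were called, 28.6% higher in CX and 29.2% in HIP. The P7 libraries chose the genes, while the calls at E17.5 and P35 came from libraries of other animals. These counts carry no test. The 1148 CX genes held 465 TEC and 39 sense-intronic features, and the 696 HIP genes 8 and 0. The part of these uncertain features in the counts was not tested. The region by age interaction, which tests the difference between ages, called 7158 genes (38.1%) for P7 against E17.5, 17.7% towards CX and 20.4% towards HIP at P7. Which direction held more of these calls was not stable. With upper-quartile normalization 3712 genes shifted towards CX and 3084 towards HIP, and without P7 mouse 6 3141 and 2594. At 2-fold or more 1533 genes shifted towards CX and 489 towards HIP. For P7 against P35 the interaction called 5813 genes (30.8%), 12.7% towards CX and 18.1% towards HIP at P7. The interaction compares different animals, and collection and age cannot be told apart.

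Against E17.5, the genes with the smallest p whose CX-to-HIP ratio had risen were the Wnt receptor gene Fzd10 (log2 fold change −4.61 at E17.5 and 1.23 at P7), Slc17a8, a vesicular glutamate transporter (−3.94 and 1.99), Tpbg, a Wnt-modulating glycoprotein (−2.58 and 0.74), Sidt1 (−2.66 and 0.32) and A830036E02Rik (−3.42 and 0.41). All 5 were called higher in HIP at E17.5 and higher in CX at P7, and their interactions had edgeR adjusted p-values of 1.21e-08 or less. Slc17a8 was at 3.31 ± 1.303 CPM in HIP and 0.234 ± 0.173 CPM in CX at E17.5. At P7 it was at 4.99 ± 0.991 CPM in HIP and 19.7 ± 4.29 CPM in CX (SD, n = 6 each, normalized over the 3 ages). The ratio fell for Nin, a centrosome gene (1.68 and −0.016), Limch1 (1.24 and −0.17), Atrnl1 (1.34 and 0.35), the guanine exchange factor gene Vav3 (1.74 and −0.50) and a feature without a symbol, ENSMUSG00000043498 (1.25 and −0.11). Nin, Limch1 and Vav3 were higher in CX at E17.5, whereas at P7 Limch1 and Vav3 were higher in HIP and Nin did not pass the test.

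Lists moved with age too. The Wnt pathway list had a median log2 fold change of −1.16 at E17.5, −0.18 at P7 and 0.017 at P35. Between E17.5 and P7 21 of its 40 genes shifted towards CX and 4 towards HIP, against 17.7% and 20.4% of all genes tested. Meningeal and choroid plexus markers moved with this comparison. All 12 meningeal genes and 9 of 12 choroid plexus genes shifted towards CX. The summed meningeal level was 29.2 to 57.8 CPM in CX and 55.5 to 278 CPM in HIP at E17.5, and 254 to 387 CPM and 239 to 519.7 CPM at P7. For choroid plexus it was 2.04 to 5.64 CPM and 16.1 to 4717 CPM at E17.5, and 11.2 to 46.8 CPM and 17.6 to 165 CPM at P7. Their part in the age result was not tested. At P35 the summed choroid plexus level was 8.55 to 12.6 CPM in CX and 28.1 to 2245 CPM in HIP.

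**Figure D5:**
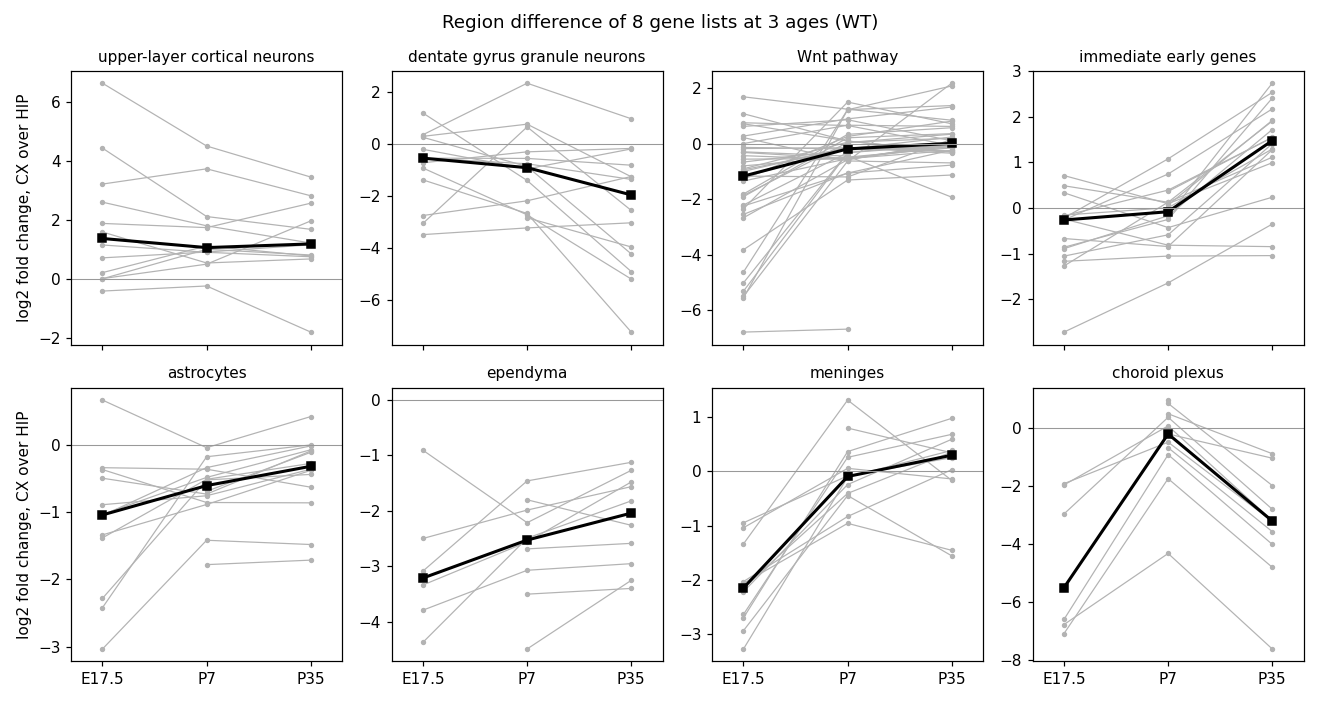
Log2 fold change of CX over HIP at E17.5 (6 WT mice), P7 (6) and P35 (5) for the members of 8 gene lists (grey lines; a point is missing where a gene was not tested at that age), with list medians in black. The immediate early gene median is −0.082 at P7 and 1.48 at P35, and the dentate gyrus median −0.91 and −1.96.

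Between P7 and P35 the immediate early genes turned towards CX. Of 18, 14 were higher in CX and 2 in HIP in adults, where the list median was 1.48. The summed level in adults was 1323 to 2424 CPM in CX and 747 to 943 CPM in HIP (normalized over the 3 ages). The interaction was called for 16 of 18, each time with a lower ratio of CX to HIP at P7. Of all genes tested for it, 12.7% were nearer to CX at P7 than at P35 and 18.1% nearer to HIP. The interaction counts of the lists below are to be read against these shares. Egr1 had a log2 fold change of 2.17 in adults and Npas4 of 2.53. Dentate genes stood further apart in adults. The list median was −1.96, with 13 of 14 higher in HIP. By the interaction 9 of 14 genes were nearer to CX at P7 than at P35 and 2 nearer to HIP, and the 9 included Lct (log2 fold change −5.20 in adults) and Plk5 (−1.26). Choroid plexus markers moved the same way, 9 of 12 being nearer to CX at P7 and 0 nearer to HIP, and their part in this result was not tested. Fewer cell cycle genes were called higher in HIP at P35, 7 of 18 against 16 at P7, and the list median was −0.20 at P35. By the interaction 10 were nearer to HIP at P7 than at P35 and 2 nearer to CX. Their summed level was still higher in HIP at P35, at 93.4 to 116.3 CPM in CX and 116.7 to 132.6 CPM in HIP. At P7 it was 213 to 278 CPM in CX and 309 to 405 CPM in HIP (normalized over the 3 ages). Markers of other cells also stood nearer to HIP at P7 than at P35, 11 of 13 endothelial and pericyte, 7 of 14 astrocyte and 5 of 12 microglial genes, with 0 nearer to CX in each list. Their part in the cell cycle result was not tested.

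Among the genes with the smallest p for a CX-to-HIP ratio that was higher at P7 than at P35 were the sodium channel subunit gene Scn3b (log2 fold change 0.027 at P7 and −1.56 at P35), Lrrc10b (−2.07 and −4.87), the exocytosis gene Doc2b (0.0094 and −2.43) and the unconventional myosin gene Myo5b (−0.32 and −2.39). Doc2b was at 75.8 ± 6.73 CPM in CX and 76.2 ± 2.73 CPM in HIP at P7 (SD, n = 6 each). At P35 it was at 14.97 ± 0.786 and 81.6 ± 6.72 CPM (SD, n = 5 each). All 4 were called higher in HIP at P35, with interactions at an edgeR adjusted p of 1.52e-09 or less, while Scn3b and Doc2b did not pass the test between regions at P7. The ratio was lower at P7 for Arpp19, an inhibitor of a protein phosphatase (0.12 and 2.08), Myl4, a myosin light chain (0.86 and 4.29), Rims3, a presynaptic protein (0.51 and 2.46), Dkkl1 (0.71 and 4.75) and Bmp3, a secreted factor gene (0.63 and 2.83), each of which was called higher in CX at both ages.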

How the data were processed

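Total RNA was ribodepleted and sequenced as stranded paired-end libraries by the authors, who trimmed reads with cutadapt 1.14, aligned them with STAR 2.5.3a to GRCm38.p5 and deposited RSEM 1.3 expected counts per gene, per the labels and the submitters' processing notes. Estimated counts share reads among similar genes, and reads in introns count where another gene is annotated there.

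The deposited expected counts were rounded to whole numbers, genes were filtered with edgeR's filterByExpr, and 12 libraries were fitted in edgeR 4.0.16 (R 4.3.3; TMM, quasi-likelihood, mouse as a block). SE is the absolute log2 fold change over the square root of F. Pairing came from the animal named in the labels; same-mouse deviations correlated at 0.095 to 0.50 over genes. Adjusted p-values (Benjamini-Hochberg) of at most 0.1 were called. Interactions were fitted over mice of both groups with the mouse as a block. The study's removal of unwanted variation was not used, and was not compared with the block. Alternatives were upper-quartile normalization, DESeq2 1.42.0, the likelihood ratio test, no filter, no block, addition of the cerebellum libraries, mice of 1 name prefix, and each mouse left out; leaving out E17.5 mice of low depth was added after the data were seen. On simulated data for this comparison (17841 genes, 200 changed) the fit recovered 24% of changes of 0.25 (log2) and 64% of 0.5. It recovered 84% of changes of 1 and 100% of 2, with 20 false calls. In the mice 10688 genes were called, and recovery and false calls with that many genes changed were not tested.

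The comparison and gene lists were chosen with earlier results of these data known. Named genes were Cul3; the 10 largest log2 fold changes in each direction with a mean of at least 2 CPM, no overlap between the libraries of the 2 regions and no predicted model; the 5 smallest p in each direction; up to 3 of each list in each direction; 5 per age interaction and direction; and 3 predicted models or noncoding RNAs in each direction. Members not called are named only where a sentence turns on them. A few genes that these rules name are not reported here. One adult mouse, labelled WT but given as Cul3+/- in the study's sample sheet, was left out. The 6 mice are separate animals, and p-values measure the spread between them.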

Additional observations from a re-analysis of the deposited data

Results flagged for a closer look

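Among 374 groups of 6 libraries, the 2 regions for each gene named in the text, 30 held a library whose gap to the nearest of the others was, relative to the range, above Dixon's 95% value. Chance gives about 1 in 20. Values are CPM, followed by the range of the other 5 libraries. The HIP library of mouse 5 was the highest of its group for Mef2c 169.6 (110.2 to 123), Cplx3 1.32 (0.0923 to 0.408), Satb1 77.0 (57.0 to 63.4), Grik3 81.2 (49.4 to 56.3), Gabrb2 154 (118 to 128), Cdh18 11.7 (5.93 to 7.46) and Slc17a6 82.2 (49.1 to 58.9). All of these genes were higher in CX. It was the lowest for Zbtb20 371 (472 to 519.8) and Epha6 112 (135 to 146), which were higher in HIP.

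The CX library of mouse 2 was the highest of its group for St18 4.36 (1.28 to 2.43), Lhx9 5.40 (1.19 to 1.82), Plk5 4.42 (1.56 to 2.32), Barhl2 1.39 (0.0283 to 0.283), Rxrg 6.81 (2.35 to 3.20), Rarb 8.76 (3.82 to 4.87) and Penk 20.2 (3.03 to 6.45), and it held the only count of Wnt8b in CX (0.0295 CPM). The CX library of mouse 4 was the highest for Pdzd2 288 (137 to 182), Slc1a2 1946 (691 to 1066) and Spop 112 (69.7 to 79.0), and the CX library of mouse 1 for Meis2 178 (97.8 to 127), Wnt5a 16.1 (10.8 to 11.8), Vav3 8.66 (6.47 to 7.19) and Eomes 16.6 (0.290 to 1.12). Single flags stood for Trh in the HIP library of mouse 2 (0.482 against 0.138 to 0.245 in the others), Cdh9 in the HIP library of mouse 3 (60.0 against 40.6 to 42.0 in the others), Olig1 in the same library (70.6 against 83.1 to 85.5 in the others), Nin in the HIP library of mouse 4 (81.3 against 65.4 to 70.8 in the others), and Olig2 (19.3 against 23.1 to 24.9 in the others) and Aldh1l1 (78.5 against 63.2 to 68.2 in the others) in the CX library of mouse 6.

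The difference between CX and HIP changed with age by the interaction test for the 19 genes named for it. On the log2 scale, the value at P7 minus that at E17.5 was 5.75 for Fzd10, 5.81 for Slc17a8, 3.75 for A830036E02Rik, 3.22 for Tpbg and 2.86 for Sidt1. It was −2.33 for Vav3, −1.79 for Nin, −1.500 for Limch1, −1.45 for ENSMUSG00000043498 and −1.08 for Atrnl1. The value at P7 minus that at P35 was 2.76 for Lrrc10b, 2.40 for Doc2b, 2.03 for Myo5b and 1.55 for Scn3b. It was −4.08 for Dkkl1, −3.47 for Myl4, −2.24 for Bmp3, −2.01 for Arpp19 and −1.996 for Rims3.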

How the results depend on the processing

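The number of genes called between CX and HIP in WT mice at P7 was 10688. It was 10906 with upper-quartile normalization, 9576 with DESeq2, 10348 with edgeR's likelihood ratio test, 10975 without the low-count filter and 9673 to 10584 when 1 mouse was left out. The share of calls that were higher in CX was 53.0%, and 44.9% with upper-quartile normalization. At 2-fold or more, 1844 genes became 2818 without the low-count filter, which tests more genes of few counts. Without the mouse as a replicate block, which the pairing by animal called for, 9517 genes were called, 1818 of them at 2-fold. The fits within the C1 or C2 mice hold fewer animals, so a call lost there does not by itself show a different log2 fold change. Besides Kctd13 and Slco1a4, named genes lost their call without the block for Hs3st4, Bcas1, Enpp6, Klhl9 and Arpp19; with the cerebellum libraries for Hs3st4, Crhbp, Mbp, Ermn, Sostdc1, Klhl9 and Myo5b; without the filter for Arpp19; by the likelihood ratio test for Klhl9; within the C1 mice for Cul3, Wfs1, Emx1, Crhr2, Bcas1, Sostdc1, Rxrg, Rarb, Tnfaip1, Spop, Limch1, Arpp19 and Eomes; within the C2 mice for Cul3, Mdga1, Plk5, Crhbp, Cldn11, Bcas1, Enpp6, Lhfpl3, Slc13a4, Col1a2, Prlr, Spop, Klhl9 and Arpp19; without mouse 2 or 6 for Enpp6; without mouse 3 for Mdga1; and without mouse 5 for Crhbp and Enpp6.

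The region by genotype interaction called 0 genes by the quasi-likelihood test and 1 by the likelihood ratio test, Armc3. The region by age interactions called 5463 to 7156 genes (main value 7158) against E17.5 over the alternatives that left out no single mouse, 5679 without the 2 E17.5 mice with a HIP library of less than 20000000 counts, and 4774 to 6439 (main value 5813) against P35. The difference of library totals was 0.210 (CX minus HIP, in units of 1000000 counts) and −0.55 to 1.72 with 1 mouse left out, so that its sign was not stable.

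Over the named genes and their alternatives, 2512 fits kept direction and side of the threshold, 73 lost a call, 12 gained one and 21 changed sign. All changes of sign were of genes not called: Axin2 (−0.0011 with upper-quartile normalization), Barhl2 (0.49 in the 2 C1 mice), Slc1a2 and Sst (0.016 and 0.013 in the 3 C2 mice), Nr3c1 (0.049 in the C2 mice, −0.060 to 0.0063 with 1 mouse left out), Lhx6 and Nin (−0.12 to 0.0062 and −0.078 to 0.0023 with 1 mouse left out), Penk (−0.000896 with DESeq2, −0.45 in the C2 mice, −0.30 to 0.22 with 1 mouse left out), Scn3b (−0.019 with upper-quartile normalization, −0.0010 without the filter, −0.018 to 0.048 with 1 mouse left out) and Doc2b (−0.036 with upper-quartile normalization, −0.0013 with DESeq2, −0.018 without the filter, −0.053 in the C1 mice, −0.065 to 0.029 with 1 mouse left out). The cause was not tested.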
